A study of Danio rerio with 228 samples.

Results

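Perfluorinated carboxylic acids are chains of fully fluorinated carbons that end in a carboxylic acid group, and 5 of them were tested here: PFBA, PFHxA, PFOA, PFNA and PFDA. Their members in these data are every zebrafish embryo pool exposed to one of the acids, chosen by the title of the pool. PFBA, PFHxA, PFNA and PFDA had 20 such pools each and PFOA had 23, out of 228 libraries in all, and they are compared with the 26 pools kept in the solvent DMSO that serve as their controls. The acids differ by the number of carbons, 4 in PFBA, 6 in PFHxA, 8 in PFOA, 9 in PFNA and 10 in PFDA. In SMILES notation, which spells out each atom, they are written as follows, and each longer acid has more CF2 units between the acid group and the CF3 end.
PFBA (perfluorobutanoic acid): OC(=O)C(F)(F)C(F)(F)C(F)(F)F
PFHxA (perfluorohexanoic acid): OC(=O)C(F)(F)C(F)(F)C(F)(F)C(F)(F)C(F)(F)F
PFOA (perfluorooctanoic acid): OC(=O)C(F)(F)C(F)(F)C(F)(F)C(F)(F)C(F)(F)C(F)(F)C(F)(F)F
PFNA (perfluorononanoic acid): OC(=O)C(F)(F)C(F)(F)C(F)(F)C(F)(F)C(F)(F)C(F)(F)C(F)(F)C(F)(F)F
PFDA (perfluorodecanoic acid): OC(=O)C(F)(F)C(F)(F)C(F)(F)C(F)(F)C(F)(F)C(F)(F)C(F)(F)C(F)(F)C(F)(F)F

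The series set out points of departure of 9 per- and polyfluoroalkyl substances in zebrafish embryos, the lowest concentrations at which development or transcription departs from controls. Each library was a pool of 10 whole embryos exposed from 4 to 120 h post fertilisation in water with 0.1% DMSO, and 3183 probes were counted by TempO-Seq, which ligates a pair of detector oligonucleotides on each target RNA. PFBA was given at 8, 25, 80, 250 and 600 µM, PFHxA at 6, 20, 60, 200 and 600 µM, PFOA at 4, 12, 40, 120 and 400 µM, PFNA at 4, 20, 40, 200 and 450 µM and PFDA at 0.12, 0.4, 1.2, 4 and 12 µM. Each concentration had 4 pools, except PFOA at 40, 120 and 400 µM with 5. PFBA and PFHxA embryos came from Ottawa fish and share 6 DMSO pools, called control_ottawa. PFOA and PFDA embryos came from a mixture of Ottawa and Montreal fish and share 4 DMSO pools, called control_mixed; that PFDA belongs to them is an assumption, since the labels of these controls name PFDS in 2 places and PFDA in none. PFNA embryos came from Ottawa fish, on a plate and in an RNA extraction batch of their own, with 16 DMSO pools labelled as their controls (control_pfna), of which 4 share that batch. All controls carried the same solvent as the exposed pools.

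Longer perfluorinated chains are less soluble in water and bind proteins such as serum albumin and the fatty acid binding proteins of liver more tightly. In rodents such acids resemble fatty acids enough to activate the nuclear receptor PPARα, and they can also engage the xenobiotic receptors CAR and PXR. Those receptors drive cytochromes P450, which oxidise foreign and endogenous molecules, and the UDP-glucuronosyltransferases. The latter attach glucuronic acid taken from UDP-glucuronic acid, the product of UDP-glucose dehydrogenase. The acids themselves are not broken down by these enzymes.

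Library totals lay between 2254364 and 4466565 counts, with a median of 3244980. 4 pools stood apart from their group over all probes by more than 1.4 times the median distance: PFOA 4 µM replicate 1, PFHxA 200 µM replicate 1, PFBA 250 µM replicate 1 and control_pfna replicate 10. Mean RNA yield of the PFNA pools was 245.0, 232.5, 206.5, 185.5 and 176.8 ng/µl at 4, 20, 40, 200 and 450 µM, and the mean RNA integrity number was 9.75, 9.8, 9.52, 9.43 and 9.38 in the same order. The part of yield and integrity in the PFNA results was not tested. The labels number the pools of a group but give no spawning for any of them, and p-values here measure the spread between pools, which may be technical. In RNA from whole embryos, fewer cells of a type and less RNA per cell cannot be told apart.

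The first question was how each gene moved with concentration within an acid. For each gene a slope was fitted over the exposed pools of 1 acid alone, as the log2 change per 10-fold rise in concentration, and a slope was called when its adjusted p from edgeR was below 0.05. PFNA had by far the most called slopes, 500 of 2765 probes tested (18.1%), of which 292 rose and 208 fell. When counts were scaled to library totals instead, 366 of 502 called PFNA slopes rose. PFHxA had 26 called slopes of 2705 (0.961%), with 0.813% rising and 0.148% falling. PFOA had 23 of 2712 (0.848%), with 0.59% rising and 0.258% falling, and PFDA had 22 of 2721 (0.809%), with 0.698% rising and 0.11% falling. PFBA, the shortest acid, had 2 of 2720 (0.0735%) in edgeR and 6 in DESeq2, and 178 of its slopes (6.54%) had an unadjusted p under 0.05. The counts did not follow the number of carbons, and the acids were given over ranges that differ in position, so a count compares the ranges as tested. Without the highest concentration of each acid, 46 slopes were called in PFNA, 7 in PFDA, 6 in PFOA and 0 in PFHxA and PFBA. Without the pools that stood apart, 35 were called in PFOA and 4 in PFBA.

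**Figure D1:**
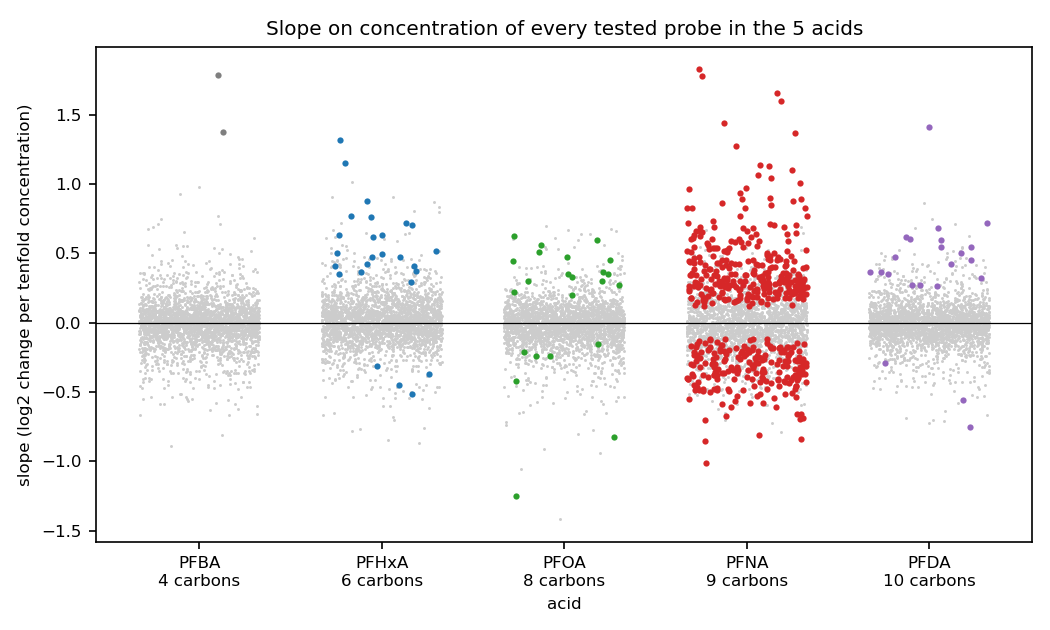
Slopes of all tested probes for each acid, in order of chain length, as log2 change per 10-fold rise in concentration (vertical axis). Grey points are slopes that were not called and coloured points those called; PFNA has 500 called slopes and the other 4 acids have 2 to 26.

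A few genes of glucuronidation rose with concentration. ugdh, which encodes the UDP-glucose dehydrogenase that makes UDP-glucuronic acid, was the single gene with a called slope in 4 acids. Its level was 113.2 CPM at the lowest, 128.97 CPM at the median and 135.3 CPM at the highest of the 6 control_ottawa pools, where CPM is the count per 1000000 counts of the scaled library. At 600 µM it was 149.8, 164.97, 170.9 and 194.1 CPM with PFBA and 295.8, 322.9, 338.5 and 422.1 CPM with PFHxA. Both sets lay above every control pool, and the PFHxA pools lay above all PFBA pools. In the 4 control_mixed pools ugdh was at 147.6, 181.1, 206.2 and 207.9 CPM. PFOA pools held 305.8, 307.7, 310.4 and 347.1 CPM at 4 µM and 446.1, 511.2, 552.2, 556.2 and 594.5 CPM at 400 µM. PFDA pools held 197.2, 202.04, 213.7 and 228.9 CPM at 0.12 µM and 399.6, 410.01, 440.4 and 450.6 CPM at 12 µM. The lowest PFDA pools overlapped the controls, whereas every PFOA pool lay above them from 4 µM on. The slopes of ugdh were 0.47 ± 0.07 (adjusted p = 0.000825) for PFHxA and 0.37 ± 0.05 (adjusted p = 2.08e-05) for PFOA. They were 0.45 ± 0.10 (adjusted p = 0.00144) for PFNA and 0.54 ± 0.05 (adjusted p = 1.3e-07) for PFDA, each as estimate ± SE. These 4 slopes lay between 0.37 and 0.54, and the PFDA slope was fitted over much lower concentrations than the others. The slope for PFBA was 0.19 ± 0.06 (adjusted p = 0.489), which was not called.

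In PFNA cyp2y3 and ugt1a2, a cytochrome P450 and a UDP-glucuronosyltransferase, were highest at middle concentrations. cyp2y3 was at 1613 CPM at the lowest, 2377 CPM at the median and 3020.1 CPM at the highest in control_pfna and at 2693, 2959, 3012 and 3205 CPM with 4 µM PFNA. It was at 4119, 4729.8, 5205 and 5256 CPM with 40 µM, at 4212, 4483, 4612 and 5485 CPM with 200 µM and at 2552, 2765, 2915 and 3456 CPM with 450 µM. The 450 µM pools lay below all pools at 40 µM. The log2 changes of cyp2y3 from DMSO were 0.32, 0.65, 1.02, 0.98 and 0.29 at 4, 20, 40, 200 and 450 µM. A straight line was rejected for cyp2y3 in PFNA (adjusted p = 9.13e-05) and for ugt1a2 (0.0081) by a test of the 5 group means against the line. The slopes of 0.09 for cyp2y3 and 0.04 for ugt1a2 in PFNA were not called, although both were above DMSO at 40 µM. ugdh in PFNA held 264.3, 274.5, 314.7 and 322.2 CPM at 200 µM and 176.9, 216.3, 226.5 and 237.5 CPM at 450 µM, also without overlap, and its departure from the line was not called (adjusted p = 0.074). Over all probes a departure from the line was called for 183 in PFNA (6.62%), 45 in PFHxA (1.66%), 1 in PFBA (0.0368%) and, in edgeR at this threshold, 0 in PFOA and PFDA.

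Of the UDP-glucuronosyltransferases, ugt2b5 had called rises in all 3 of the longer acids. It was at 25.4, 27.2, 28.7 and 47.6 CPM in control_mixed, at 70.6, 73.4, 76.8, 85.5 and 92.3 CPM with 400 µM PFOA and at 71.2, 78.4, 94.6 and 94.8 CPM with 12 µM PFDA. All exposed pools of both groups lay above all 4 controls. Its slope was 0.45 ± 0.07 (adjusted p = 0.000488) in PFOA, 0.55 ± 0.11 (adjusted p = 0.000916) in PFNA and 0.69 ± 0.09 (adjusted p = 1.79e-05) in PFDA. The slopes of 0.07 in PFBA and 0.33 in PFHxA were not called. ugt1a2 had called slopes in PFHxA, PFOA and PFDA, of 0.30, 0.30 and 0.46. ugt2a4 had called slopes in PFOA and PFDA, of 0.62 and 0.59, while its slope in PFHxA was −0.01. Of 9 tested genes on the list of glucuronidation and conjugation, 3 rose and 1 fell in PFOA, 3 rose in PFDA, 2 rose and 2 fell in PFNA, 1 rose in PFHxA and 0 were called in PFBA. Over all probes 0.59% rose and 0.258% fell in PFOA, 0.698% rose in PFDA, 10.6% rose and 7.52% fell in PFNA and 0.813% rose in PFHxA. The list's median slopes were 0.01, 0.07, 0.074, 0.039 and 0.124 in the order of chain length, beside medians over all probes between −0.011 and 0.008.

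Of the list of cytochromes and xenobiotic receptors, 1 of 23 rose in PFHxA, 2 of 23 in PFOA and 1 of 22 in PFDA. In PFNA 3 of 24 rose and 1 fell, and 0 were called in PFBA. Over all probes 0.813% rose in PFHxA, 0.59% in PFOA and 0.698% in PFDA, and 10.6% rose and 7.52% fell in PFNA. The list's median slopes were −0.005, −0.055, 0.071, 0.025 and 0.015 in the order of chain length. cyp2y3 had slopes of 0.35 ± 0.06 (adjusted p = 0.000825) in PFHxA, 0.35 ± 0.05 (adjusted p = 4.03e-05) in PFOA and 0.50 ± 0.06 (adjusted p = 1.79e-05) in PFDA. alas1, which makes the first intermediate of heme, the cofactor of cytochromes, had called slopes of 0.51 in PFOA and 0.55 in PFDA. The PFDA call of alas1 was lost in 16 of 20 fits that each left out 1 pool and with total-count scaling, plate or extraction batch as a term. gsta.2, a glutathione S-transferase, had the steepest slope of any gene called in PFDA, 1.42 ± 0.18 (adjusted p = 2.29e-05), and a called slope of 0.71 in PFHxA. gsta.2 levels were 4.62, 8.41, 11.4 and 13.98 CPM in control_mixed, 3.21, 4.30, 4.94 and 7.01 CPM at 0.12 µM PFDA and 19.3, 21.1, 34.5 and 52.1 CPM at 4 µM PFDA. The 4 µM pools all lay above the controls. prdx1, a peroxiredoxin that removes hydrogen peroxide, had called slopes of 0.62 in PFHxA, 0.54 in PFNA and 0.60 in PFDA, and of 0.45 ± 0.12 (adjusted p = 0.0719) in PFOA, which was not called. The PFHxA call of prdx1 was lost in 13 of 20 such fits and with plate or extraction batch as a term, and its PFDA call in 4 of 20. cyp7a1, the rate-limiting enzyme of bile acid synthesis, rose in PFOA with a slope of 0.48 ± 0.08 (adjusted p = 0.0011). fabp10a, the fatty acid binding protein of zebrafish liver, rose in PFOA with 0.27 and in PFNA with 0.21. These calls of fabp10a were lost in 5 of 23 and 12 of 20 fits that each left out 1 pool, and the PFOA call also with extraction batch as a term.

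The summed level of 6 hepatocyte markers is given beside these genes, and 0 of the 6 were at 0 in all pools. The sum was between 9698 and 11720.0 CPM with 600 µM PFHxA and between 6985 and 9108 CPM in the other PFHxA groups, without overlap. In PFNA it was between 9234 and 11460.0 CPM at 40 µM, between 7142 and 9110.0 CPM at 450 µM and between 4418 and 8518 CPM in control_pfna. In PFDA it was between 6047 and 8950.0 CPM over all concentrations, beside 6942 to 9193 CPM in control_mixed. Its part in the slopes was not tested. Of the 6 markers, 0 had a called slope in PFBA, PFHxA and PFDA, 1 rose in PFOA (fabp10a), and 1 rose and 2 fell in PFNA. Over all probes 0.59% rose in PFOA, and 10.6% rose and 7.52% fell in PFNA.

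**Figure D2:**
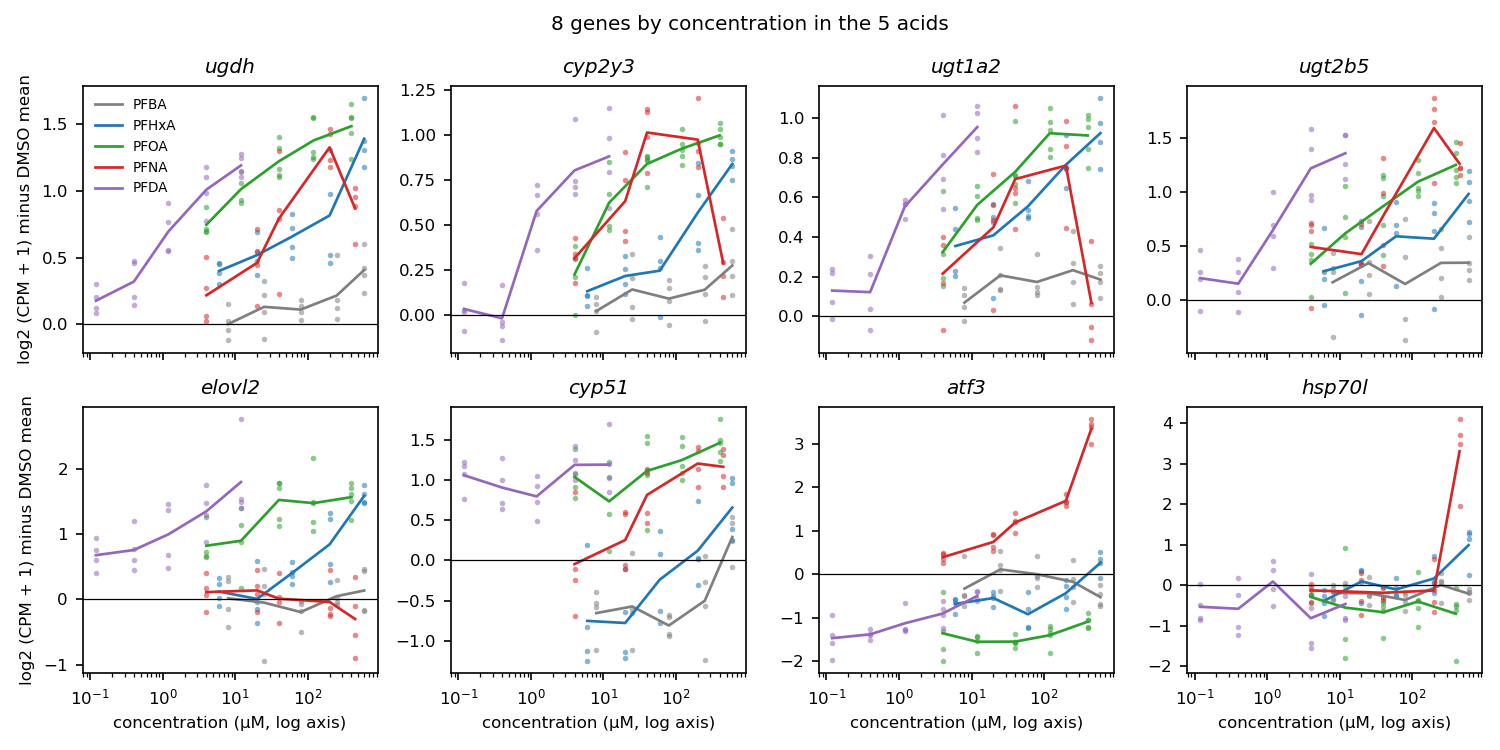
Levels of 8 genes in every exposed pool (points, colour by acid) as log2 (CPM + 1) minus the mean of the DMSO pools of that acid (vertical axis, with a line at 0 for the DMSO mean) against concentration (µM, log scale); lines join group means. cyp2y3 rises and then falls back in PFNA, and elovl2 rises in PFHxA and PFDA and has no called change in PFNA.

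The same genes were also set against DMSO at every concentration, to see where they first departed. ugdh first passed the threshold at 1.2 µM PFDA, 4 µM PFOA, 40 µM PFNA and 60 µM PFHxA, and at no concentration of PFBA. The log2 changes there were 0.71, 0.75, 0.84 and 0.67. Over all probes, 0.109% were called at that PFDA concentration, 1.61% at that of PFOA, 4.21% at that of PFNA and 1.2% at that of PFHxA. cyp2y3 first passed at 1.2 µM PFDA, 12 µM PFOA, 20 µM PFNA and 200 µM PFHxA, where 0.109%, 1.1%, 1.23% and 1.02% of probes were called. ugt1a2 first passed at 1.2 µM PFDA, 12 µM PFOA, 40 µM PFNA and 60 µM PFHxA. ugt2b5 first passed at 4 µM PFDA, 40 µM PFOA, 40 µM PFNA and 600 µM PFHxA, where 0.292%, 1.72%, 4.21% and 20.3% of probes were called. The last of these shares was 2.29% with extraction batch as a term. For these 4 genes PFDA came first in concentration, PFHxA came last among the acids with a call, and PFBA had none up to 600 µM. The PFDA calls of ugdh, cyp2y3 and ugt1a2 at 1.2 µM lay below every concentration given of the other acids. No other acid could therefore come before PFDA for them. ugdh was already called at 4 µM PFOA, the lowest PFOA concentration, so where it first departed in PFOA is not known. The first concentrations called depend on the concentrations chosen and on the number of DMSO pools, and their order was not tested. PFHxA pools shared an RNA extraction batch with control_ottawa replicate 6 alone, and 4 µM PFOA pools with control_mixed replicate 2 alone. The part of extraction batch in the order of the acids was not tested. At 600 µM PFBA, where 0.146% of probes were called, the change of ugdh was 0.42 ± 0.11 (adjusted p = 0.106).

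Lipid genes split the acids in another way. elovl2, which encodes an elongase of polyunsaturated fatty acids, had called slopes of 0.77 ± 0.10 (adjusted p = 0.000183) in PFHxA and 0.62 ± 0.12 (adjusted p = 0.00529) in PFDA, and a slope of 0.40 ± 0.11 (adjusted p = 0.0775) in PFOA, which was not called. Its slope in PFNA was −0.16 ± 0.10 (adjusted p = 0.3), against the sign of the other longer acids. The level was 26.7, 40.9, 42.4 and 48.2 CPM in control_mixed, 88.6, 95.5, 133.04, 140.8 and 140.8 CPM at 40 µM PFOA and 106.3, 112.6, 115.9 and 273.5 CPM at 12 µM PFDA. Every pool of both exposed groups lay above the controls, and 1 PFDA pool stood above the rest. At the lowest concentrations elovl2 already differed from control_mixed by 0.70 at 0.12 µM PFDA and 0.86 at 4 µM PFOA, neither called. The part of the control_mixed pools in these changes was not tested. At 600 µM elovl2 was at 36.5, 36.9, 56.4 and 57.6 CPM with PFBA and 119.9, 120.5, 132.2 and 145.2 CPM with PFHxA. In PFNA it was at 25.3, 31.9, 33.8 and 43.6 CPM at 40 µM and 17.2, 22.1, 30.4 and 41.8 CPM at 450 µM, within 14.96 to 53.5 CPM in control_pfna. At no PFNA concentration was elovl2 called against DMSO. The slope of PFNA was below that of PFHxA, with a difference of −0.93 (95% interval −1.23 to −0.63, adjusted p = 0.000166), and below that of PFOA, with a difference of −0.56 (95% interval −0.86 to −0.25, adjusted p = 0.0331). The slope of PFHxA was above that of PFBA by 0.72 (95% interval 0.40 to 1.03, adjusted p = 0.00633).

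Of the genes of cholesterol synthesis and uptake, 8 rose in PFNA and 1 in PFHxA. cyp51, the sterol demethylase, had slopes of 0.72 ± 0.14 (adjusted p = 0.00773) in PFHxA and 0.61 ± 0.11 (adjusted p = 0.000469) in PFNA. In PFHxA its changes from DMSO were −0.65, −0.73, −0.16, 0.18 and 0.71 at 6, 20, 60, 200 and 600 µM, none of them called. The PFHxA slope of cyp51 was not called with the DMSO pools added to the fit. In PFDA its slope was 0.12, not called, although its level at the lowest concentration of 0.12 µM was already above DMSO by 1.08 ± 0.18 (adjusted p = 0.00592), at a place where 0.0364% of all probes were called. cyp51 was also above DMSO at the lowest PFOA concentration, 4 µM, by 1.07 ± 0.22 (adjusted p = 0.00626). Both changes were taken from the same 4 control_mixed pools, with a mean of 54.7 CPM. Means in PFDA were 116.2, 105.3, 97.01, 127.1 and 129.8 CPM at 0.12, 0.4, 1.2, 4 and 12 µM. The part of the control_mixed pools in these changes was not tested. Of 13 tested genes of the list, 8 rose and 1 fell in PFNA with a median slope of 0.293, beside 10.6% of all probes that rose and 7.52% that fell. In PFHxA 1 of 13 rose, beside 0.813% of all probes, with a median of 0.325. 0 were called in PFBA, PFOA or PFDA, where the medians were 0.056, 0.114 and 0.063. hmgcs1, which makes the precursor HMG-CoA, and ebp, a sterol isomerase, had PFNA slopes of 0.58 and 0.77. apoea, an apolipoprotein E, fell with called slopes of −0.42 in PFOA and −0.66 in PFNA and had slopes below 0 in the other acids, at −0.28, −0.19 and −0.31. Targets of PPAR and fatty acid oxidation had 8 rising and 2 falling of 29 tested in PFNA, beside the same 10.6% and 7.52%, with a median of 0.029, and 0 called in each of the other acids. angptl4, an inhibitor of lipoprotein lipase, and cd36, a fatty acid transporter, had called PFNA slopes of 0.34 and −0.41. The PFNA calls of ebp, angptl4 and cd36 were lost without the highest concentration, and those of cyp51, hmgcs1 and apoea were kept.

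Some protein stress genes rose in PFHxA and PFNA. hsp70l, a heat shock protein 70, was at 16.6, 31.2, 34.1 and 35.2 CPM with 600 µM PFHxA, at 10.3, 12.4, 15.4 and 26.8 CPM with 200 µM PFNA and at 67.1, 195.7, 228.1 and 302.8 CPM with 450 µM PFNA. DMSO pools held 8.15 to 17.2 CPM in control_ottawa and 9.07 to 28.6 CPM in control_pfna. The PFNA pools at the highest concentration lay above every other PFNA pool. The slope was 0.64 ± 0.13 (adjusted p = 0.0102) in PFHxA and 1.78 ± 0.29 (adjusted p = 0.000163) in PFNA, and −0.18 in PFOA and 0.01 in PFDA, neither called. The PFHxA slope of hsp70l was not called without replicate 2 or without replicate 3 at 600 µM. Neither its PFHxA nor its PFNA slope was called without the highest concentration. Of the heat shock list 2 of 14 rose in PFHxA, beside 0.813% of all probes, and 6 of 15 in PFNA, beside 10.6%. The chaperones hspa5 of the endoplasmic reticulum and hsp90aa1.2 of the cytosol had called slopes of 0.37 and 0.41 in PFHxA and of 0.55 and 0.71 in PFNA. Neither of the PFHxA calls was kept with extraction batch as a term. The list for the unfolded protein response and the integrated stress response held 28 tested genes, and 12 of them rose and 1 fell in PFNA, with trib3, a pseudokinase of that response, at 0.94. The PFNA counts stand beside 10.6% of all probes that rose and 7.52% that fell. In PFHxA 2 of 28 rose, beside 0.813% of all probes, and in PFDA 1 did, beside 0.698%.

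The immediate-early genes, which respond within minutes to growth factors, injury and stress, changed sign of their median along the chain. Their median slope was −0.163 in PFBA, −0.074 in PFHxA, 0.037 in PFOA, 0.44 in PFNA and 0.231 in PFDA. Of these genes 12 of 19 rose in PFNA, 4 of 20 in PFDA, 1 of 19 in PFHxA and 0 in PFBA and PFOA. No gene of this list had a called fall in any acid, so its medians below 0 rest on slopes that were not called. Over all probes 10.6% rose in PFNA, 0.698% in PFDA and 0.813% in PFHxA. The part of the pools that stood apart in the median slopes was not tested. atf3, a transcription factor of the stress response, had called slopes of 0.42 in PFHxA, 1.37 in PFNA and 0.47 in PFDA. Against DMSO atf3 in PFHxA changed by −0.68, −0.55, −0.89, −0.42 and 0.28 at 6, 20, 60, 200 and 600 µM. Only the change at 60 µM was called. In PFDA atf3 was below DMSO at all 5 concentrations, with changes from −1.43 to −0.50, none called. In PFOA it was called below DMSO at 12, 40 and 120 µM, by −1.56, −1.56 and −1.40. atf3 was at 88.9, 94.3, 102.2 and 103.3 CPM with 4 µM PFNA and at 594.05, 779.3, 816.2 and 890.04 CPM with 450 µM PFNA, while control_pfna held 50.03 CPM at the lowest, 65.7 CPM at the median and 111.2 CPM at the highest. The 450 µM pools lay above every other PFNA pool. The PFHxA slope of atf3 was no longer called in 12 of 20 fits that each left out 1 pool. The same held with plate or extraction batch as a term and with the DMSO pools added. fosab, a Fos subunit of the factor AP-1, and btg2, an antiproliferative gene, had slopes of −0.56 and −0.48 in PFBA, not called, and of 0.60 and 0.44 in PFNA and 0.35 and 0.36 in PFDA, all called. The 4 control_mixed pools differed widely in these genes. In control_mixed atf3 was at 90.4, 104.6, 451.7 and 463.4 CPM and fosl1a, another AP-1 subunit, at 62.5, 90.1, 747.4 and 824.3 CPM, with replicates 1 and 2 high in both. Slopes use no DMSO pool. With the DMSO pools added to the fit, the PFDA slopes of atf3, fosab and btg2 were not called, and that of atf3 was −0.139. The PFDA calls of atf3, fosab and btg2 and the PFNA calls of fosab and btg2 were lost without the highest concentration. PFDA slopes were not tested against those of the other acids, since its concentration range lies below theirs for the most part.

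Of 47 tested genes of mitosis and the cell cycle, 21 fell in PFNA. The median slope of the genes of mitosis and the cell cycle was 0.05 in PFBA, 0.159 in PFHxA, −0.159 in PFOA, −0.373 in PFNA and −0.07 in PFDA, beside medians over all probes within 0.011 of 0. In PFNA 0 of them rose, and 7.52% of all probes fell. In the other acids 0 were called, so the signs of their medians rest on slopes that were not called. The exposed pools that stood apart were at 250 µM PFBA, 200 µM PFHxA and 4 µM PFOA. Their part in these medians was not tested. plk1, a kinase that drives entry into mitosis, was at 135.2, 138.1, 142.1 and 154.9 CPM with 4 µM PFNA and 58.9, 63.5, 65.4 and 83.05 CPM with 450 µM PFNA. The 2 groups did not overlap. Its slopes were 0.06, 0.16, −0.18, −0.43 and −0.13 in the order of chain length, of which the PFNA slope was called (slope −0.43 ± 0.08, adjusted p = 0.000805). That call of plk1 was lost without the highest concentration. The slope of PFNA was below that of PFHxA, with a difference of −0.59 (95% interval −0.82 to −0.36, adjusted p = 0.00146), and below that of PFBA, with a difference of −0.49 (95% interval −0.71 to −0.28, adjusted p = 0.00599). The slope of PFOA differed from that of PFHxA by −0.33 (95% interval −0.53 to −0.14, adjusted p = 0.0532), which was not called. Over the list, the PFNA slope was called below the PFHxA slope for 10 of 53 genes, beside 2.12% of all probes, and below the PFBA slope for 8 of 53, beside 1.95%. The PFOA slope was called below the PFHxA slope for 3 of them, beside 0.712%. DNA replication genes had medians of 0.052, 0.119, −0.018, −0.204 and −0.033, with 2 of 33 falling in PFNA.

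**Figure D3:**
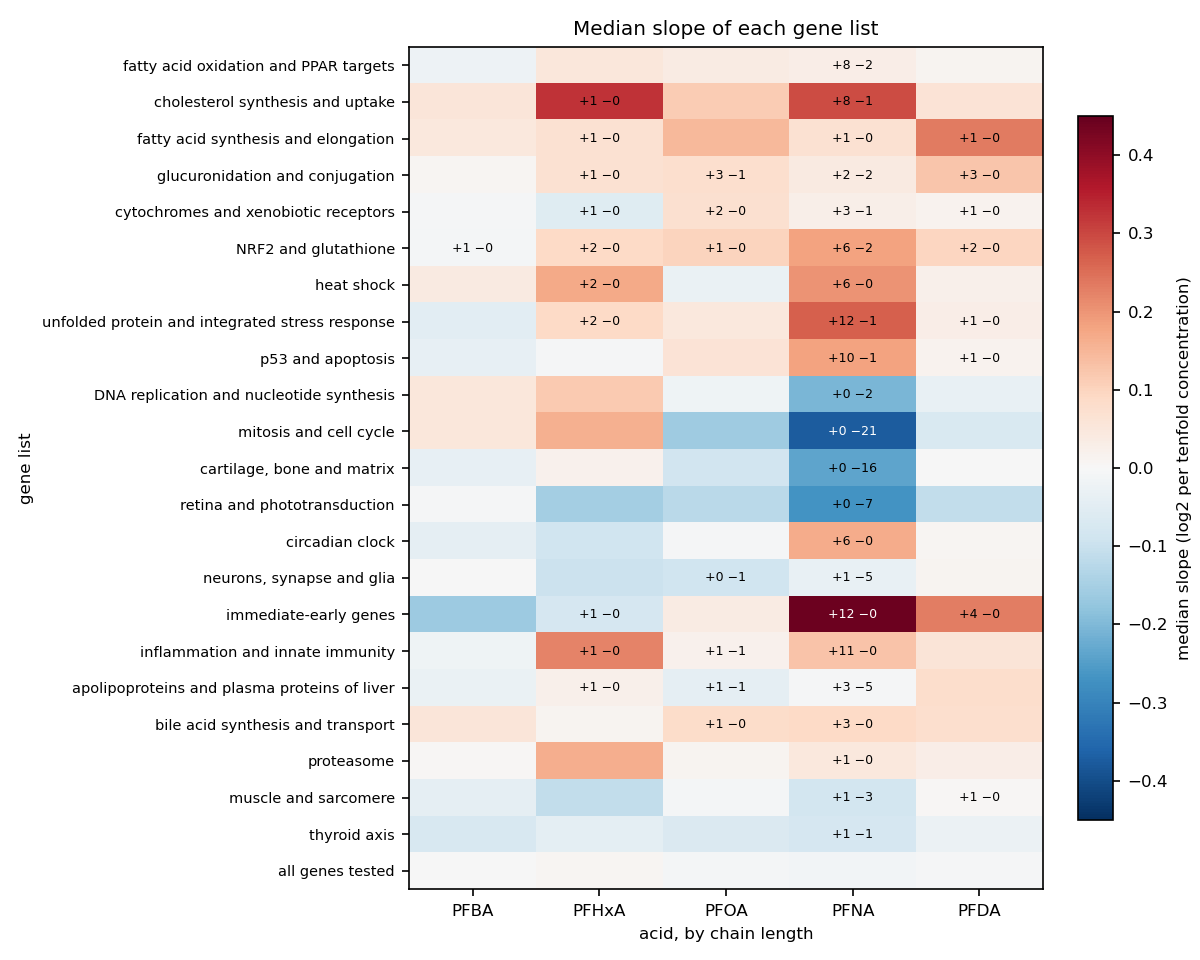
Median slope of each gene list (rows) in each acid (columns, in order of chain length), as log2 change per 10-fold rise in concentration shown by colour, with the numbers of called rises and falls in the cells. Mitosis and cell cycle is above 0 in PFBA and PFHxA and below 0 in PFOA, PFNA and PFDA, and the immediate-early genes turn the other way. Outside PFNA 0 genes of the mitosis list were called, and no immediate-early gene had a called fall in any acid.

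Among gene lists of other tissues and pathways, cell type markers aside, those of cartilage and retina fell most often in PFNA. Of 4 tested markers of notochord and swim bladder 2 fell in PFNA. Of 33 cartilage, bone and matrix genes 16 fell in PFNA, among them col2a1b (−0.43) and col9a3 (−0.40), which encode cartilage collagens. The medians of this list were −0.037, 0.021, −0.087, −0.239 and −0.002 in the order of chain length. Of 15 genes of the retina 7 fell in PFNA, among them the cone opsins opn1mw1 (−0.61), opn1sw2 (−0.55) and opn1lw1 (−0.50), and the list's medians were −0.153, −0.121, −0.268 and −0.111 in PFHxA, PFOA, PFNA and PFDA. Of 13 clock genes 6 rose in PFNA, with nfil3 at 0.54. Of 33 genes of inflammation and innate immunity 11 rose, with socs3a, a brake on cytokine signalling, at 0.40, and of 29 genes of p53 and apoptosis 10 rose and 1 fell. Of 23 genes of NRF2 and glutathione 6 rose and 2 fell, with sqstm1, an autophagy receptor, at 1.06. In PFNA 10.6% of all probes rose and 7.52% fell, and the other acids had at most 2 called genes on any of these lists. Among the largest single slopes in PFNA were the rises of hsp70.3 (1.83), irf7, an interferon regulatory factor (1.66), and fosl1a (1.60), and the falls of itih3a (−0.85), a plasma protein gene, and enam (−0.68), which encodes a matrix protein of enamel. The PFNA calls of col2a1b, col9a3, opn1mw1, opn1sw2, opn1lw1, nfil3, socs3a and sqstm1 were lost without the highest concentration. So were those of hsp70.3, itih3a and enam, while those of irf7 and fosl1a were kept.

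Few genes were called in more than 1 acid. Called slopes were counted over all probes tested in any acid, and 2600 probes were tested in all 5. A slope was called in at least 1 acid for 527 probes. It was called in exactly 1 acid for 489, in 2 for 31, in 3 for 6, in 4 for 1 and in all 5 for 0. PFNA by itself had 500 called slopes. In simulated data of the 5 acids, slopes of 0.25 were recovered for 19.4 to 37.3% of changed probes and slopes of 0.5 for 53.7 to 77.6%. A slope called in 1 acid alone is therefore not shown to be absent from the others. Of the 38 called in 2 or more acids, 35 had 1 sign throughout and 3 had both. mxc, an interferon-induced GTPase of the Mx family, rose in PFHxA (slope 1.32 ± 0.24, adjusted p = 0.00274) and fell in PFOA (slope −1.25 ± 0.25, adjusted p = 0.0069). Its levels were 49.02, 66.97, 90.8 and 98.9 CPM with 600 µM PFHxA, above every other PFHxA pool. With PFOA they were 6.53, 9.64, 11.2 and 78.96 CPM at 4 µM and 2.75, 3.27, 4.43, 4.56 and 5.08 CPM at 400 µM. The fall of mxc in PFOA rests on 1 pool of 78.96 CPM, replicate 4 at 4 µM, and without it the slope was not called (adjusted p = 0.214). anpepb, an aminopeptidase, fell in PFHxA (−0.31) and rose in PFNA (0.33), and its PFHxA slope was no longer called in 14 of 20 fits that each left out 1 pool. si:dkey-251i10.1 rose in PFHxA (0.88) and fell in PFNA (−0.26). Its PFNA slope was 0.053 and not called with the DMSO pools added to the fit, and neither call held without the highest concentration.

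Agreement between acids was closest among the longer ones. PFOA and PFDA had slopes of the same sign for 61.6% of all probes, with Pearson's r of 0.313 across probes, PFNA and PFDA for 57.2% (r = 0.274), and PFOA and PFNA for 55.5% (r = 0.178). PFHxA shared the sign of PFNA for 53.5% (r = 0.121), of PFDA for 51% (r = 0.079) and of PFOA for 49.5% (r = −0.015). PFBA shared its sign with the other acids for 47.9 to 52.8% of probes, with r from −0.038 to 0.066. These values are across probes, which are not independent replicates, and no pool enters more than 1 slope fit. All pools of PFOA and PFDA came from mixed fish, and PFBA, PFHxA and PFNA from Ottawa fish; the part of fish origin in these values was not tested. PFOA and PFDA shared 8 called genes, 34.8% of those of PFOA and 36.4% of those of PFDA, all of 1 sign. They were the 6 genes ugdh, cyp2y3, ugt1a2, ugt2b5, ugt2a4 and alas1, with ifi46, an interferon-induced gene, and loc110439158, which fell in both at −0.83 and −0.76. In PFDA the calls of alas1 and ifi46 were lost in 16 and 12 of 20 fits that each left out 1 pool, and that of ifi46 also with extraction batch as a term. The PFDA calls of ifi46 and loc110439158 were lost with the DMSO pools added to the fit and without the highest concentration. Of all 23 genes called in PFOA 22 had the same sign in PFDA, and all 22 called in PFDA had the same sign in PFOA.

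**Figure D4:**
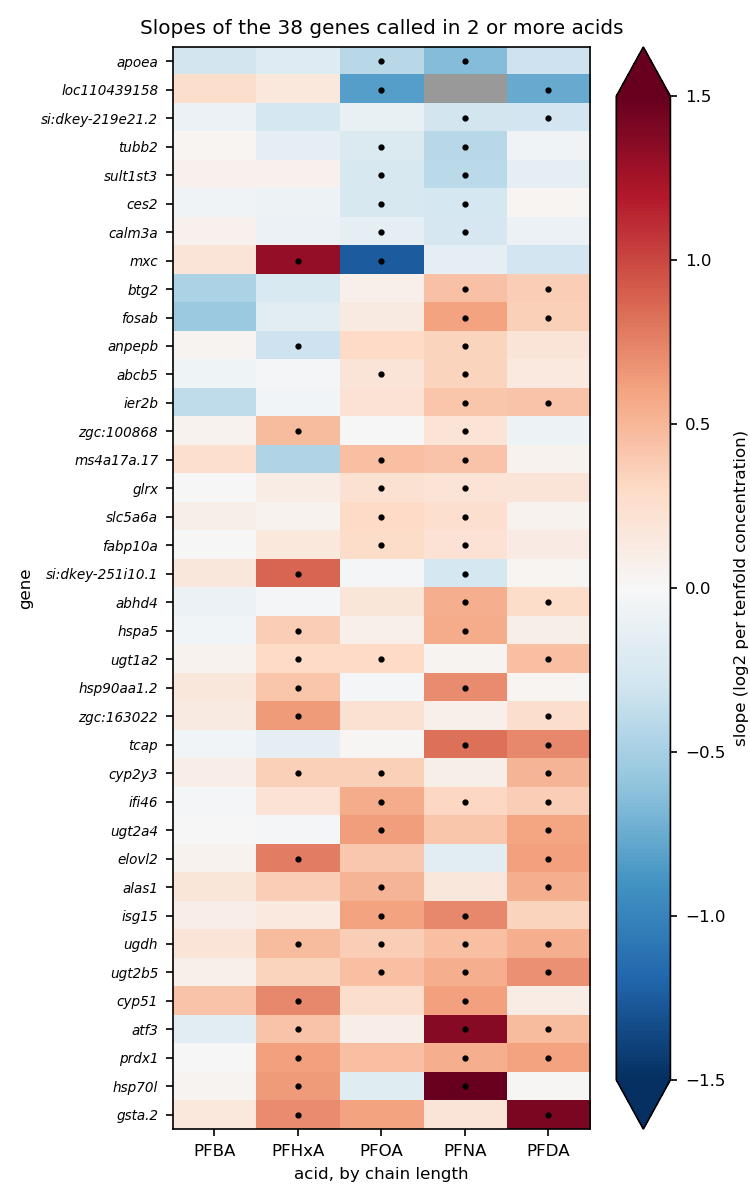
Slopes, as log2 change per 10-fold rise in concentration shown by colour, of the 38 genes called in 2 or more acids (rows) in the 5 acids in order of chain length (columns). Dots mark called slopes and grey cells were not tested; ugdh is called in PFHxA, PFOA, PFNA and PFDA.

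Slopes were then tested against each other for the 6 pairs among PFBA, PFHxA, PFOA and PFNA, whose concentration ranges overlap, with p adjusted over all probes and pairs. Acid cannot be told apart from fish origin in the pairs with PFOA, nor from plate and extraction batch in the pairs with PFNA. PFNA differed from PFBA for 4.61% of the probes tested, from PFHxA for 4.77% and from PFOA for 3.5%. PFOA differed from PFBA for 24 genes (0.856%) and from PFHxA for 34 (1.21%), and PFHxA differed from PFBA for 22 (0.79%). Among the genes of a pair that differed, the 2 slopes had opposite signs for 85.4% with PFNA and PFBA, 80% with PFNA and PFHxA and 62.6% with PFNA and PFOA. The share was 88.2% with PFOA and PFHxA, 91.7% with PFOA and PFBA and 72.7% with PFHxA and PFBA. At most 3 genes of a pair had both slopes called. Over all probes the slopes had the same sign for 52.8%, 53.5%, 55.5%, 49.5%, 51.8% and 47.9% in that order of pairs. Choosing genes by a difference of slopes favours opposite signs by itself, so these shares do not show a reversal. cyp2y3 was steeper than in PFBA by 0.25 (95% interval 0.10 to 0.40, adjusted p = 0.0481) in PFHxA and by 0.24 (95% interval 0.11 to 0.38, adjusted p = 0.0395) in PFOA. ugt1a2 was steeper than in PFBA by 0.24 (95% interval 0.11 to 0.37, adjusted p = 0.0328) in PFHxA and by 0.24 (95% interval 0.11 to 0.37, adjusted p = 0.032) in PFOA. For ugdh 0 of the 6 differences were called, and that between PFHxA and PFBA was 0.28 (95% interval 0.10 to 0.47, adjusted p = 0.0884). hsp70l was steeper in PFNA than in PFOA by 1.94 (95% interval 1.09 to 2.78, adjusted p = 0.00495) and than in PFBA by 1.71 (95% interval 0.94 to 2.47, adjusted p = 0.00673). Without the highest concentration of each acid at most 1 gene of a pair was called. Those fits have fewer pools and a shorter range, so the lost calls do not show where along the range the slopes differ.

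At matched concentrations 8 pairs of acids could be compared, with p adjusted over all probes and all 8 pairs. PFHxA and PFBA share 600 µM and their DMSO pools, and were compared directly. Of the RNA extraction batches at 600 µM, batch 9 alone held pools of both acids. Of 2796 probes 210 differed (7.51%), with 4.08% higher and 3.43% lower in PFHxA, the acid with 2 carbons more. ugdh was higher in PFHxA by a log2 difference of 0.99 (95% interval 0.73 to 1.26, adjusted p = 3.17e-06), ugt1a2 by 0.74 (95% interval 0.53 to 0.96, adjusted p = 1.44e-05) and cyp2y3 by 0.56 (95% interval 0.34 to 0.78, adjusted p = 0.00136). elovl2 was higher by 1.44 (95% interval 0.96 to 1.92, adjusted p = 0.000164), gsta.2 by 1.27 (95% interval 0.66 to 1.88, adjusted p = 0.0115) and hsp70l by 1.31 (95% interval 0.82 to 1.80, adjusted p = 0.00076). In each of ugdh and elovl2 all 4 PFHxA pools lay above all 4 PFBA pools. For ugt2b5 the difference was 0.65 (95% interval 0.15 to 1.15, adjusted p = 0.152) and for cyp51 0.39 (95% interval −0.20 to 0.98, adjusted p = 0.566), which were not called. Of 34 DNA replication genes 11 were higher in PFHxA, with a list median of 0.585, beside 4.08% of all probes. gpx1a, a glutathione peroxidase, was at 3.20, 50.8, 80.9 and 104.9 CPM in PFBA and 5.27, 6.30, 9.68 and 13.1 CPM in PFHxA and was among the largest differences, but its pools fell into separate levels in DMSO too, at 5.91 to 238.5 CPM.

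PFDA and PFOA differ by 2 carbons as well and share 4 and 12 µM and their DMSO pools. At these concentrations no RNA extraction batch held pools of both acids, so acid and batch cannot be told apart in the differences below. At 4 µM 61 of 2803 probes differed (2.18%), 30 higher and 31 lower in PFDA, and at 12 µM 29 differed (1.03%), 16 higher and 13 lower. Without PFOA 4 µM replicate 1, which stood apart, 27 differed at 4 µM. At 4 µM PFDA was higher for cyp2y3 by 0.57 (95% interval 0.36 to 0.79, adjusted p = 0.000663), for ugt1a2 by 0.44 (95% interval 0.22 to 0.65, adjusted p = 0.0132) and for ugt2b5 by 0.91 (95% interval 0.52 to 1.3, adjusted p = 0.00358). gsta.2 was at 4.65, 8.65, 9.64 and 11.2 CPM with PFOA and at 19.3, 21.1, 34.5 and 52.1 CPM with PFDA, without overlap, a difference of 1.93 (95% interval 1.17 to 2.69, adjusted p = 0.00142). At 12 µM PFDA was higher for ugt1a2 by 0.39 (95% interval 0.18 to 0.60, adjusted p = 0.0295), for ugt2b5 by 0.71 (95% interval 0.33 to 1.09, adjusted p = 0.0281) and for elovl2 by 0.96 (95% interval 0.41 to 1.51, adjusted p = 0.0369). The differences of cyp2y3 at 12 µM, 0.26 (95% interval 0.05 to 0.47, adjusted p = 0.184), and of ugdh at 4 µM, 0.27 (95% interval 0.04 to 0.49, adjusted p = 0.207), and at 12 µM, 0.17 (95% interval −0.05 to 0.40, adjusted p = 0.489), were not called. Such intervals do not show that the acids act alike. Immediate-early genes were higher in PFDA for 3 of 20 at 4 µM, beside 1.07% of all probes, and 5 of 20 at 12 µM, beside 0.571%. fosab was at 119.8, 150.8, 155.1 and 196.6 CPM with 12 µM PFOA and 358.6, 381.6, 424.8 and 484.7 CPM with 12 µM PFDA, and btg2 at 365.5, 380.2, 407.9 and 516.9 CPM and 920.3, 1095, 1110.0 and 1317 CPM, both without overlap. alpi.2, an intestinal alkaline phosphatase, was lower in PFDA, at 51.7, 52.2, 60.3 and 65.5 CPM against 110.9, 126.1, 130.8 and 131.2 CPM, a difference of −1.10 (95% interval −1.38 to −0.82, adjusted p = 1.19e-06). ace, the angiotensin-converting enzyme, was lower too, with a difference of −0.90 (95% interval −1.36 to −0.45, adjusted p = 0.0166). At 4 µM saa, an acute-phase protein, rested on replicate 4 of PFOA, at 3.86, 4.71, 5.19 and 329.6 CPM, and col9a2 rested on replicate 1 of PFOA, at 45.4, 59.3, 88.8 and 1159.8 CPM.

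PFNA has DMSO pools of its own, so its 5 pairs were compared as differences of the changes from DMSO. PFNA pools lay on another plate and in another extraction batch than the pools of the other acids. PFOA and PFDA embryos also came from mixed fish. A response that differs by fish origin, plate or batch cannot be told apart from one that differs by acid here. PFNA against PFOA, 1 carbon shorter, differed for 89 genes at 4 µM (3.09%, and 49 genes without the pools that stood apart) and 79 at 40 µM (2.75%). Against their own DMSO pools 0.246% of probes were called at 4 µM PFNA and 1.61% at 4 µM PFOA. At 40 µM ugdh differed by −0.39 (95% interval −0.84 to 0.06, adjusted p = 0.399) and cyp2y3 by 0.17 (95% interval −0.15 to 0.49, adjusted p = 0.676), neither called, while elovl2 was lower in PFNA, with a difference of −1.55 (95% interval −2.23 to −0.87, adjusted p = 0.00392). PFDA against PFNA, again by 1 carbon, differed for 21 genes at 4 µM (0.73%). ugdh was higher in PFDA by 0.80 (95% interval 0.33 to 1.27, adjusted p = 0.0437), ugt2a4 by 1.63 (95% interval 0.81 to 2.45, adjusted p = 0.0152), cyp51 by 1.15 (95% interval 0.55 to 1.75, adjusted p = 0.0213) and elovl2 by 1.28 (95% interval 0.53 to 2.03, adjusted p = 0.0429). The elovl2 difference was not called in 5 of 8 fits that each left out 1 exposed pool. The cyp51 difference uses the same control_mixed pools as its change from DMSO at 0.12 µM PFDA. The elovl2 differences of PFNA from PFOA and PFDA use the control_mixed pools as well. PFNA against PFHxA, by 3 carbons, differed for 70 genes at 20 µM (2.43%) and for 5.04% of probes at 200 µM. At 200 µM plk1 was lower in PFNA, with a difference of −0.86 (95% interval −1.28 to −0.43, adjusted p = 0.0129), and so was apoea, with −1.45 (95% interval −2.01 to −0.89, adjusted p = 0.00076), while atf3 was higher by 2.16 (95% interval 1.66 to 2.66, adjusted p = 3.5e-08). Of 53 genes of mitosis and the cell cycle 7 were lower in PFNA at 200 µM, where 1.63% of all probes were lower.

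Some differences with PFNA stood beside DMSO pools that differed themselves. cyp24a1, the enzyme that degrades vitamin D, was higher in PFNA than in PFHxA at 20 µM by 2.63 (95% interval 1.73 to 3.53, adjusted p = 0.000126) and than in PFOA at 4 µM by 2.62 (95% interval 1.62 to 3.63, adjusted p = 0.00067). It was at 281.3, 284.1, 311.2 and 457.3 CPM with 20 µM PFNA and 114.8 ± 40.1 CPM (mean ± SD, n = 4) with 20 µM PFHxA, without overlap. In control_pfna it was at 47.3 CPM at the lowest, 107.3 CPM at the median and 308.3 CPM at the highest, with 158.8, 172.1, 221.6 and 239.7 CPM in the 4 pools of the PFNA extraction batch, and in control_ottawa it was at 146.9 to 385.5 CPM. per2, a clock gene, was higher in PFNA than in PFHxA at 20 µM by 2.49 (95% interval 1.69 to 3.29, adjusted p = 4.07e-05), yet its level was 52.7, 74.1, 81.96 and 87.8 CPM with PFNA and 77.3, 80.8, 92.2 and 101.1 CPM with PFHxA. DMSO levels of per2 were 200.2 to 332.3 CPM in control_ottawa and 13.8 to 78.99 CPM in control_pfna.

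**Figure D5:**
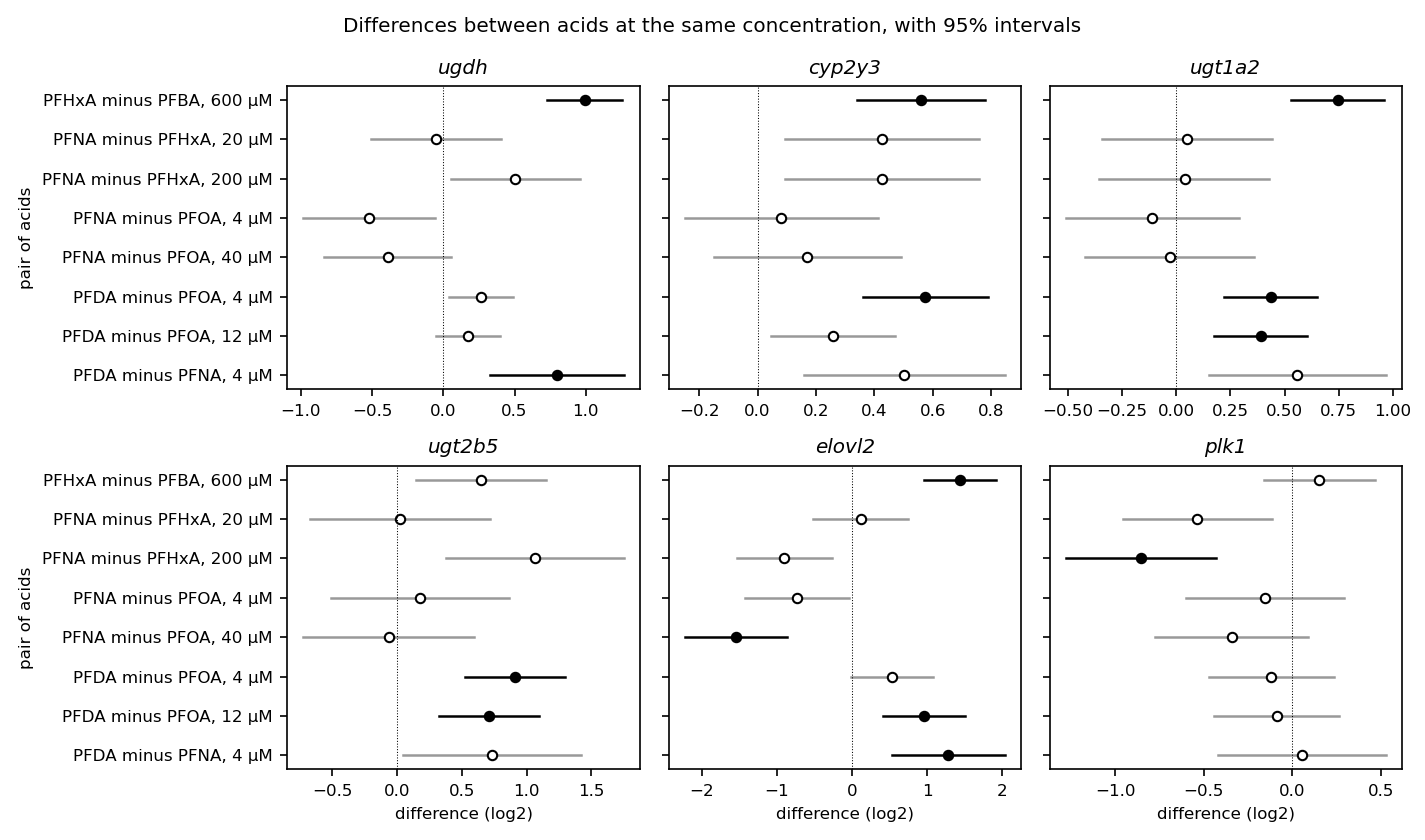
Log2 differences between acids at matched concentrations (8 pairs) for 6 genes, with 95% intervals and filled points where the adjusted p is below 0.05. The longer acid is higher for ugdh, cyp2y3 and ugt1a2 at 600 µM PFHxA against PFBA, and elovl2 is lower in PFNA than in PFOA at 40 µM.

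PFBA had called slopes for gpx1a and rad9a. gpx1a rose by 1.79 ± 0.32 (adjusted p = 0.0245) and lost its call in 4 of 20 fits that each left out 1 pool. rad9a, a DNA damage checkpoint gene, rose by 1.38 ± 0.26 (adjusted p = 0.0279). With extraction batch as a term or with the replicate block 0 slopes were called in PFBA, and with the DMSO pools added the slope of gpx1a was −0.495. Besides anpepb, slc6a19b, a transporter of neutral amino acids (slope −0.51 ± 0.09, adjusted p = 0.0023), and ace (slope −0.45 ± 0.08, adjusted p = 0.00415) fell in PFHxA. The PFHxA call of anpepb was lost with extraction batch as a term. Of 6 intestine markers 1 fell in PFHxA, which was anpepb itself, beside 0.148% of all probes, and the median slope of these markers was −0.145. Their summed level was between 1875 and 2417 CPM at 600 µM PFHxA, beside 2282 to 3870.0 CPM in control_ottawa as scaled with PFHxA. All 4 exocrine pancreas markers had slopes below 0 there, with 0 called, and their summed level was between 5492 and 14320.0 CPM, beside 10080.0 to 30760.0 CPM. For both lists 0 markers were at 0 in all pools, and their part in these falls was not tested. In PFDA slc16a7, a monocarboxylate transporter, fell (slope −0.55 ± 0.10, adjusted p = 0.00505). tcap, a titin-binding muscle protein, rose in PFDA (0.72) and PFNA (0.83), and isg15, an interferon-induced ubiquitin-like protein, rose in PFOA (0.60) and PFNA (0.72). The PFDA calls of slc16a7 and tcap were lost with the DMSO pools added to the fit and without the highest concentration. Without the highest concentration the PFNA calls of tcap and isg15 were lost too.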

How the data were processed

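RNA of the zebrafish embryo pools was measured by TempO-Seq with the S1500+ panel of 3183 probes. The authors deposited a single table of whole-number counts, 1 column for each library, in which no normalization was found. The submitters' processing notes list fastp 0.23.2, R 4.4.1 and STAR 2.7.10b without a role; the sources used here do not give the genome build or the counting step. Reads shared by probes of near-identical paralogs were not tested for. Groups, concentrations, plates and extraction batches came from the labels, and 0 columns were left unused. The members, gene lists and tests were chosen with earlier results of these data known.

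edgeR 4.0.16 in R 4.3.3, with limma 3.58.1, was run after filterByExpr and TMM scaling, and DESeq2 1.42.0 served as an alternative. Slopes on log10 concentration were fitted per acid over exposed pools by the quasi-likelihood test, and group means against DMSO, a departure from the line and matched concentrations in fits of group means. Slope differences used fits of both acids. All tests were two-sided, at a threshold of 0.05 after Benjamini-Hochberg adjustment within a contrast or over all 6 or 8 pairs. CPM is scaled within each acid's fit; control_ottawa values are as scaled with PFBA and control_mixed values as scaled with PFDA. Named genes are the 6 largest called rises and falls per acid with a mean of 10 CPM or more, genes called in 3 or more acids or with both signs, the 3 largest differences per pair and direction, and the 3 smallest p per list with 3 or more called members; others, such as rad9a, hspa5, hsp90aa1.2 and the remaining shared genes, were named after their values were seen. The steps were tested on simulated data with 200 changed probes. In none of 303 pairs of pools of a group did counts agree within sampling noise; chi-square was at least 6 per degree of freedom. Alternatives were other scalings, no filter, DESeq2, plate, extraction batch or replicate number as a term, other references, no highest concentration, and leaving out each pool or, chosen after seeing the data, the pools that stood apart.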

Additional observations from a re-analysis of the deposited data

Results flagged for a closer look

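Slopes that differed between acids by the test of the difference were counted over 11 genes and 6 pairs, 20 of 66. elovl2 had a slope above that of PFBA by 0.72 in PFHxA, and PFNA minus PFHxA and PFNA minus PFOA were −0.93 and −0.56. cyp2y3 was above PFBA by 0.25 in PFHxA and 0.24 in PFOA, and ugt1a2 by 0.24 in PFHxA and 0.24 in PFOA. hsp70l differed by 0.59 between PFHxA and PFBA, by 1.71 between PFNA and PFBA and by 1.94 between PFNA and PFOA. atf3 was steeper in PFNA than in PFBA by 1.53, than in PFHxA by 0.94 and than in PFOA by 1.28. PFNA minus PFBA and PFNA minus PFHxA were −0.49 and −0.59 for plk1 and −0.38 and −0.47 for apoea. For mxc PFOA minus PFBA was −1.45, PFOA minus PFHxA −2.57 and PFNA minus PFHxA −1.48. The 2 that involve PFOA hold replicate 4 at 4 µM, which stood far above its group. Against DMSO mxc was called higher at 40 and 200 µM PFNA (1.24 and 1.11) and not called at 450 µM (−0.72). In PFHxA it was called higher at 600 µM alone (3.42).

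In 22 of 297 groups of values of these 11 genes, 1 pool stood far from the others by Dixon's test; chance marks about 1 in 20 groups. PFOA 4 µM held 5 such values in 3 pools: apoea at 781.6 CPM and ugdh at 347.1 CPM in replicate 1, elovl2 at 97.5 CPM in replicate 3, and mxc at 78.96 CPM and hsp70l at 4.87 CPM in replicate 4. PFOA 40 µM had cyp2y3 at 3155 CPM in replicate 3 and mxc at 15.8 CPM in replicate 1. In PFDA they were elovl2 at 273.5 CPM in replicate 4 and plk1 at 139.1 CPM in replicate 2 at 12 µM, cyp2y3 at 4025 CPM in replicate 3 at 4 µM and atf3 at 173.4 CPM in replicate 1 at 1.2 µM. In PFNA apoea was at 212.01 CPM at 200 µM and 134.99 CPM at 450 µM in replicate 1, and elovl2 at 45.3 CPM in replicate 1 at 200 µM. In PFNA also mxc was at 37.2 CPM in replicate 3 at 40 µM, and ugt2b5 at 53.9 CPM in replicate 4 at 20 µM and 31.1 CPM in replicate 2 at 4 µM. PFHxA had apoea at 1108 CPM in replicate 3 at 60 µM, and PFBA had atf3 at 191.2 CPM in replicate 1 at 8 µM and mxc at 48.5 CPM in replicate 4 at 80 µM. Among DMSO pools ugt1a2 was at 241.2 CPM in control_ottawa replicate 1 and ugt2b5 at 47.6 CPM in control_mixed replicate 3.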

How the results depend on the processing

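Values are percentages of the probes tested that were called. They depended most on the highest concentrations and on the DMSO pools. Without the highest concentration, called slopes were 0% in PFBA and PFHxA, 0.225% in PFOA, 1.68% in PFNA and 0.259% in PFDA. Of the genes called there, 6 in PFOA, 43 in PFNA and 6 in PFDA were also called with it. Slope differences were then 0% for 4 pairs and 0.0356% for PFNA against PFHxA and against PFOA. With the DMSO pools added to the slope fit at a stand-in 10 times below the lowest concentration, called slopes were 0.0364% in PFBA, 10.7% in PFHxA, 2.82% in PFOA and 33.3% in PFNA. DESeq2 called 0.221% in PFBA, 1.96% in PFHxA, 1.51% in PFOA and 1.69% in PFDA. With extraction batch as a term, called slopes were 0% in PFBA and 0.628% in PFHxA, and departures from a line 0.147% in PFBA, 4.18% in PFHxA and 0.0369% in PFOA. Without the pools that stood apart, called slopes were 0.147% in PFBA and 1.28% in PFOA, slope differences 1.43% for PFHxA and 2.09% for PFOA against PFBA, and matched differences from PFOA at 4 µM 1.69% for PFNA and 0.956% for PFDA. Scaling by total counts, DESeq2 size factors, no filter on low counts, plate as a term and ranked concentrations moved no share of called slopes by more than 1.5 times.

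Changes from DMSO at 600 µM PFBA, at 0.146%, were 0.291% with total counts, 0.728% with DESeq2, 0.473% with extraction batch, 0% against the lowest concentration and 0.254% without the pools that stood apart. At 600 µM PFHxA, at 20.3%, they were 2.29% with extraction batch and 3.1% against the lowest concentration. At 400 µM PFOA, at 2.53%, they were 0.44% against the lowest concentration and 4.1% without the pools that stood apart. At 450 µM PFNA, at 33.1%, they were 15.5% against the lowest concentration. At 12 µM PFDA, at 0.583%, they were 0.364% with extraction batch, 0.364% with the replicate block and 0.219% against the lowest concentration. Taken as direct differences without DMSO, the matched shares with PFNA were 18.1% and 18.1% against PFHxA at 20 and 200 µM, 19.9% and 31.3% against PFOA at 4 and 40 µM and 19.9% for PFDA at 4 µM. The cause was not tested.

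Replicate numbers were not used to pair the pools. Over the acids, the median correlation of deviations was 0.02 to 0.069 between pools with the same number and −0.039 to 0.0039 between others. Between pools of the same extraction batch it was 0.1 in PFBA, 0.074 in PFHxA, 0.045 in PFOA and 0.061 in PFDA. Pools of other batches had −0.011, −0.035, −0.014 and −0.022 in the same order, and the main fits hold no batch term. With the replicate block, called slopes were 0% in PFBA, 0.998% in PFHxA, 0.737% in PFOA, 18.4% in PFNA and 0.919% in PFDA, and the matched shares with PFNA were 6.64%, 9.25%, 6.99%, 6.02% and 3.61% in the order given above.

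With 1 pool left out at a time, called slopes were 0 to 0.147% in PFBA, 0.583 to 1.24% in PFHxA, 0.619 to 1.28% in PFOA, 12.2 to 20.1% in PFNA and 0.472 to 1.42% in PFDA. They moved by more than 1.5 times without replicate 2 or 3 of PFHxA 600 µM, replicate 1 of PFOA 4 µM, replicates 1 and 2 of PFDA 0.12 µM, replicate 2 of PFDA 1.2 µM and any of 10 PFBA pools. Changes from DMSO were 0.0362 to 0.293% in PFBA, 13.6 to 21.6% in PFHxA, 1.45 to 3.51% in PFOA, 26 to 35.4% in PFNA and 0.217 to 0.721% in PFDA. They moved by that much without control_mixed replicate 1 or 2 in PFOA and PFDA, without any pool of PFDA 12 µM and, in PFBA, without PFBA 600 µM replicate 1 or 2 or control_ottawa replicate 1 or 4. Matched shares were 4.85 to 6.23% for PFHxA against PFBA, 1.55 to 2.34% and 3.44 to 5.06% for PFNA against PFHxA, 1.21 to 4.34% and 1.75 to 2.86% for PFNA against PFOA, 0.956 to 4.03% and 0.742 to 0.955% for PFDA against PFOA and 0.378 to 0.722% for PFDA against PFNA. They moved by more than 1.5 times without replicate 3 or 4 of PFHxA 600 µM, replicate 1 of PFNA 20 µM, replicate 4 of PFNA 4 µM, replicate 2 of PFNA 40 µM, replicate 2 of PFDA 4 µM, replicate 1 of PFOA 4 µM for PFNA and PFDA and, for PFDA alone, each other PFOA 4 µM pool.

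Some named values turned sign. With the DMSO pools added, the slope was −0.495 for gpx1a in PFBA, −0.139 for atf3 in PFDA, 0.01 for ces2 in PFNA and 0.053 for si:dkey-251i10.1 in PFNA. Without the highest concentration it was −0.018 for sst1.1 in PFNA. As a direct difference, per2 in PFNA against PFHxA at 20 µM was −0.273. With 1 pool left out, saa at 4 µM ranged from −4.17 to 0.506 for PFNA and from −4.057 to 0.58 for PFDA against PFOA, with both highest values without PFOA replicate 4. The slope calls of ugdh, cyp2y3, ugt1a2, ugt2b5 and elovl2 were kept in every fit that left out 1 pool. Leaving out the highest concentration lost the PFHxA calls of ugdh, cyp2y3, ugt1a2 and elovl2. It also lost the PFOA call of ugt2b5 and the PFDA call of elovl2, and the other calls of these genes were kept.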
